A study of Mus musculus with 4 samples.

Results

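MG132, a peptide aldehyde inhibitor of the proteasome, was compared with its solvent DMSO in J774.1 cells, a mouse monocyte-macrophage line. Cultures were kept for 4 hours with an inhibitor at 1 μM or with DMSO alone, and total RNA labelled with Cy3 was hybridized to single-color arrays. The series holds 4 arrays on 1 slide, and DMSO, MG132, epoxomicin and ONX0914 have 1 array apiece. The last array carries the treatment label ONX-0912, but ONX0914 is what the protocol text and the paper call it. The comparison took the MG132 array and the DMSO array, which is 2 of the 4 arrays. A gene entered if its named probe passed the scanner's call of well above background on 1 or both of them. A gene that passed on 1 array only was left out where its scaled value there lay below the value set for the other array. The genes compared were 13772 of the 20144 genes with a named probe. The other inhibitor arrays served to show where MG132 differed from them, and all 3 inhibitors were set against the same DMSO array. With 1 array per condition the differences have no replicate check, no P value can be given, and culture, array and treatment cannot be told apart.

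The proteasome is the protease that degrades proteins marked with ubiquitin. MG132 is known to block its chymotrypsin-like site reversibly and, less selectively, to act on calpains and lysosomal cathepsins as well. When the proteasome is blocked, cells are known to make more ubiquitin and chaperones, to raise proteasome genes through the factor Nrf1 and to enter stress programs that change amino acid supply and the cell cycle. J774 cells are a proliferating tumor line used as a model of tissue macrophages.

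Signals are given in scanner units after background subtraction. Differences are given on the log2 scale after the 75th percentile of each array, which was 1654 for DMSO and 1453 for MG132, was brought to the same level, so that a ratio of raw signals differs slightly from the fold change. A gene was called at a 2-fold difference. Where a gene was well above background on 1 array and not on the other, the dim side took the higher of its own signal and the lowest signal well above background on that array, and the fold change is a bound written as at least. Across the 399 probes printed in 10 spots, the SD between spots had a median of 0.0613 with DMSO and 0.0565 with MG132 on the log2 scale, which measures the printing and scanning of 1 array only. Of 43020 non-control spots, 60.7% were well above background with MG132 and 63.1% with DMSO, and none was saturated.

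The cells carried the markers of macrophages. All 9 macrophage genes with a probe were well above background on both arrays. The signal of *Csf1r*, the receptor for the macrophage growth factor, was 210824 with DMSO and 165950.4 with MG132, and that of *Adgre1*, which encodes F4/80, was faint at 440 and 353. The differences of these 9 genes ran from -0.74 for *Tyrobp* to 0.35 for *Itgam*, whose other 2 probes differed by -0.27 and 0.56. Among genes of other cell types, 2 of 6 T cell, 1 of 5 B cell, 0 of 3 NK cell, 2 of 4 neutrophil, 1 of 3 erythroid and 0 of 3 mast cell genes were well above background on each array. Of the T cell genes these were *Cd3e* and *Lck*, whereas *Cd3d*, *Cd3g* and *Cd8a* were at background. The summed signal of the T cell list was 2506 with DMSO and 4247 with MG132. Its rise lay in *Lck*, at 1628 and 3435, while *Cd3e* was 849 and 792. The part of other cells in the differences was not tested. Fibroblast genes numbered 2 of 5 with DMSO and 1 with MG132, and epithelial genes 0 of 5 and 1, the latter being *Krt8*. In RNA from whole cultures, fewer cells of a type and less RNA per cell cannot be told apart.

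With arrays brought to the same 75th percentile, more genes were raised than lowered, and by larger factors. MG132 raised 998 genes at least 2-fold, which was 7.25% of the genes compared, and lowered 504, or 3.66%. At 4-fold the counts were 271 and 48, at 8-fold 94 and 2, and at 16-fold 29 and 0. The median over all genes was -0.02. Both arrays measured 809 of the raised and 418 of the lowered genes, and the rest rested on bounds. Among measured calls, other probes for the same genes shared the direction in 225 of 233 cases for raised genes and in 114 of 118 for lowered genes, and none showed a 2-fold difference the other way. The balance between the directions depended on the scaling. Raised genes made up 66.4% of the calls, but 45.0% without scaling between arrays, 45.6% with scaling to the spike-in controls, 55.3% with a shift to the median and 15.8% with normexp background correction fitted with outlier spots included. Without scaling the median over all genes was -0.20, and differences are therefore read relative to the bulk of the genes.

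**Figure D1:**
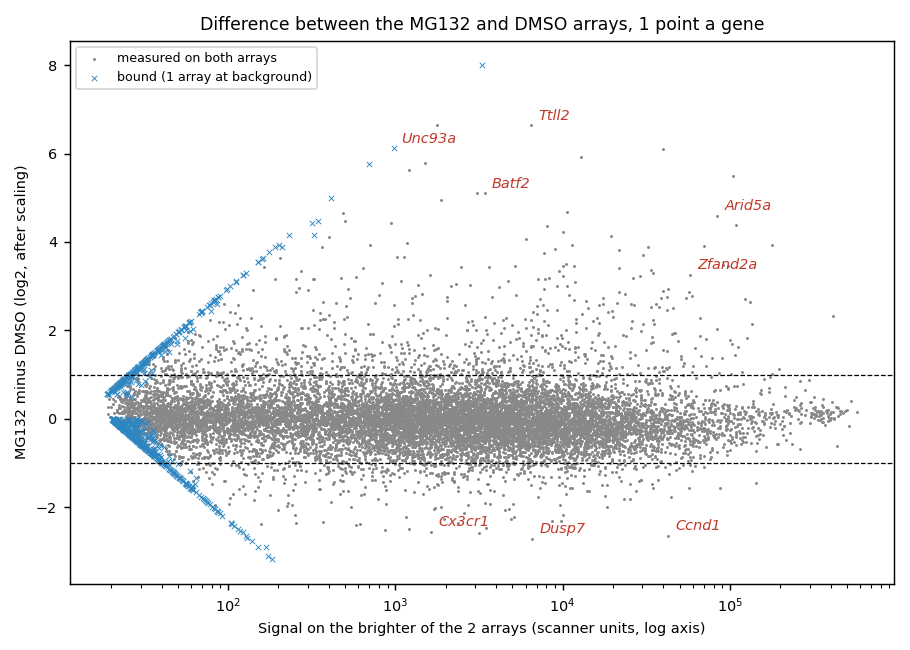
Each point is 1 of the 13772 genes compared, placed by its signal on the brighter of the DMSO and MG132 arrays (log axis) and by the log2 difference between them after scaling. Dashed lines mark 2-fold, and crosses are bounds, which fan out from the faint end; the 271 genes raised at least 4-fold outnumber the 48 lowered that far.

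The 15 largest measured increases ran from 3.67 to 6.64. Genes whose symbols matched patterns for the interferon, heat-shock, proteasome, NF-kB, p53, oxidative stress and integrated stress response groups were left out. Until 15 other genes were collected, 18 such genes were passed over among the increases and 1 among the decreases. The patterns need not cover every gene of these groups, so related genes can remain. The largest of the remaining increases was that of *Ttll2*, a tubulin tyrosine ligase-like gene, whose signal was 73.7 with DMSO, 6441 under MG132, 9572 under epoxomicin and 668 under ONX0914. Its difference was 6.64, or 99.4-fold. *Batf2*, a leucine zipper factor of macrophage activation, went from 113 with DMSO to 3415 with MG132, next to 5315 and 2161 with epoxomicin and ONX0914, a difference of 5.10 for MG132. *Arid5a* encodes an RNA-binding protein that stabilizes inflammatory mRNAs. Its signal was 3973 with DMSO, 84330.1 under MG132, 131912 under epoxomicin and 51646 under ONX0914, and the difference of 4.59 was the largest among measured genes of this ranking that were already above 1000 with DMSO. In the plot of the largest changes the inhibitor arrays all lay above DMSO for these 3 genes, with ONX0914 closest to DMSO.

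*Rab15*, a GTPase of endocytic recycling, and *Rnd3*, a small GTPase that loosens actin fibers, rose by 5.10 and 4.66. A second *Rab15* probe differed by 0.08, so the probes for this gene disagree. The signal of *Rnd3* was 21.8 with DMSO and 485 with MG132. *Grhl2*, a transcription factor of epithelia, was 25.7 with DMSO, 501 with MG132 and 1149.7 with epoxomicin but not well above background with ONX0914, and its second probe differed by -0.31. Across the alternatives the difference was as low as 1.34 for *Rnd3* and 1.20 for *Grhl2*. *Stmn4*, which belongs to the microtubule-destabilizing stathmins, was 412 with DMSO and 6034 with MG132, a difference of 4.06 that a second probe put at 4.25. The probes of *Stmn4* thus gave similar values, and those of *Rab15* and *Grhl2* did not.

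The genes that follow belong to the same ranking. *Areg*, an EGF receptor ligand, was 49.4 with DMSO and 938 with MG132, a rise of 4.43. *Cish*, a member of the family of cytokine signaling inhibitors, rose by 3.85 from 714 to 9025. The neutrophil chemokine *Cxcl2* was 652 with DMSO, 7711 under MG132, 6613 under epoxomicin and 2919 under ONX0914. Its signal was highest with MG132. *Ptgs2*, the inducible cyclooxygenase, was read in 10 spots and rose by 3.70 with a spot error of 0.02, from 2638 to 30092. *Csrnp1*, an immediate early nuclear factor, rose by 4.14, and *Prr5l*, a partner of the mTORC2 complex, by 3.67, with 3.73 on a second probe.

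**Figure D2:**
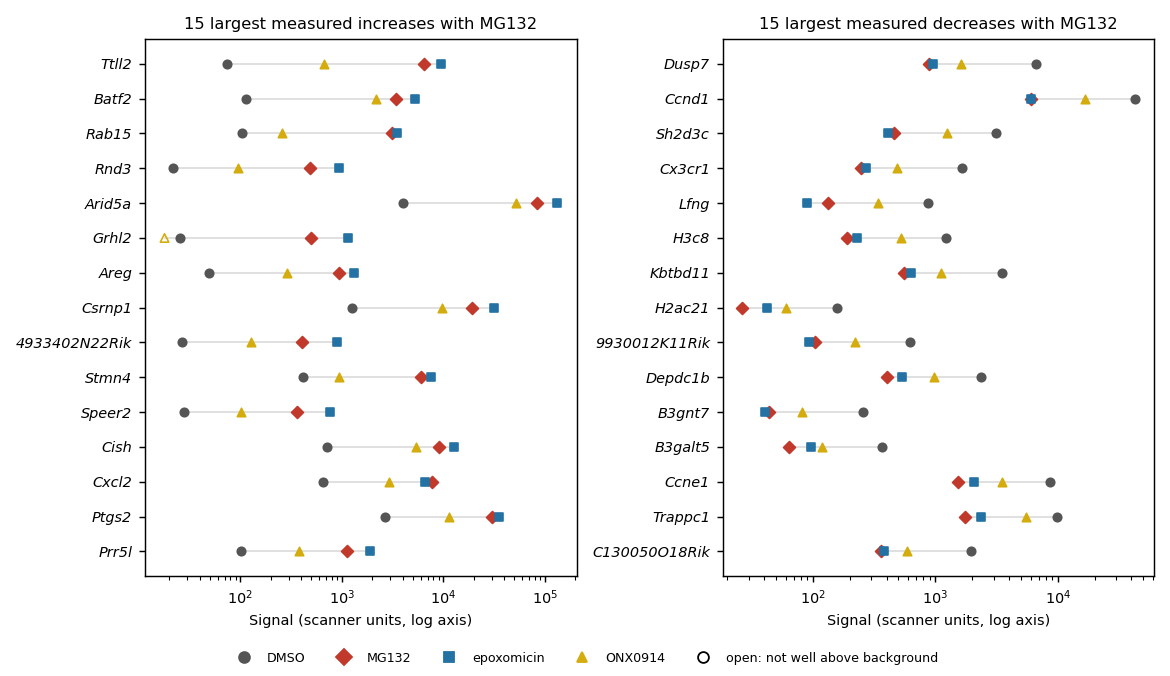
Signals on the 4 arrays (log axis, scanner units) for the 15 genes with the largest measured increase and the 15 with the largest measured decrease with MG132, 1 row a gene and 1 marker an array. Genes of the groups set aside by symbol were left out of both rankings. For all 30 genes the MG132 marker lies far from DMSO; ONX0914 lies nearer to DMSO than MG132 does in every row.

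Sequence upstream of 4 strongly raised genes is shown because each window holds the letters of an element known from stress-responsive or inducible genes. The windows come from RefSeq, build GRCm38.p6, and run from 250 bases before each start to 50 after it, and a stretch around the element, all of it before the start, is printed 5′ to 3′ on the gene's own strand, with the element in capitals. *Arid5a* holds a C/EBP-ATF core (TGATGNAA, here on the opposite strand), *Areg* and *Zfand2a* hold the cyclic AMP response element TGACGTCA, and *Il1rn*, the antagonist of the interleukin-1 receptor, holds an AP-1 core (TGANTCA). *Il1rn* was chosen after its values were seen and went from 18.5 with DMSO to 204 with MG132, a difference of 3.65 that was 0.28 under normexp fitted with outlier spots. Both strands were searched for 9 elements in all, and matches to the others are not shown. The C/EBP-ATF, cyclic AMP and AP-1 elements stood in 4.06%, 1.85% and 7.92% of 27025 windows of 300 bases. A match describes letters only, and no factor binding was measured.
*Arid5a*, chr1:36307529-36307616, plus strand: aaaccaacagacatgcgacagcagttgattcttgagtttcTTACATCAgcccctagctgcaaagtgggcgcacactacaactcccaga
*Areg*, chr5:91139498-91139585, plus strand: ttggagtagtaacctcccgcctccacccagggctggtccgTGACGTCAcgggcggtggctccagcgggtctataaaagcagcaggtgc
*Zfand2a*, chr5:139484569-139484656, minus strand: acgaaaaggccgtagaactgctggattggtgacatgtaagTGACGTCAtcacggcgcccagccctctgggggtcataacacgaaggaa
*Il1rn*, chr2:24336679-24336765, plus strand: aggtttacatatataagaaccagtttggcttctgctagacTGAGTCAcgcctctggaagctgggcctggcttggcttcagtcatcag
A comparison of elements between raised and other genes was void, since windows were matched for 77.2% of the raised genes, under the 80% asked.

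Some genes rose from background. *Unc93a* was not well above background with DMSO and reached 976 with MG132, at least 69.8-fold higher. *Serpina3f*, a serine protease inhibitor gene, reached 697, at least 54.0-fold higher, and the water and glycerol channel *Aqp9* reached 319, at least 21.6-fold higher. These 3 genes were well above background on all inhibitor arrays. The protease inhibitor gene *Spink2* reached 412 with MG132 and 1993 with epoxomicin but was not well above background with ONX0914. These bounds hold for the main setting only. Across the alternatives the log2 difference was as low as 1.75 for *Unc93a*, 1.68 for *Serpina3f* and 1.04 for *Spink2*. The fifth of the largest bounds outside the groups set aside by symbol was *Speer6-ps1*, at least 22.1-fold higher. It belongs to the *Speer* family, multicopy genes known mainly from testis. Singled out after its values were seen, this family had probes for 13 genes, of which 6 were compared and 5 were raised, against 7.25% of all genes. *Speer3* and *Speer6-ps1* were at background with DMSO and entered through MG132, so they could count only as raised. *Speer8-ps1*, well above background with DMSO and not with MG132, was left out by the rule for entry. The count is therefore partly fixed by the filter. Among the raised were *Speer2* at 3.89 and *Speer1* at 2.46. The sixth gene compared, *Speer4d*, differed by -0.22. The copies are near-identical and a probe can read several of them, so the members are uncertain as separate genes. *4933402N22Rik*, which lies between *Speer* genes, went from 26.5 to 401, and its other 2 probes differed by 3.01 and 4.14. Under normexp fitted with outlier spots the calls were lost for *Aqp9* at 0.70, *4933402N22Rik* at 0.47, *Speer1* at 0.59, *Speer2* at 0.96 and *Speer6-ps1* at 0.63.

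The decreases were smaller, and the 15 largest outside the groups set aside by symbol held genes of growth signaling, the cell cycle, histones and glycosylation. *Dusp7*, a phosphatase that switches off ERK, led them with 6604 with DMSO, 885 under MG132, 948 under epoxomicin and 1627 under ONX0914, a difference of -2.71. *Ccnd1*, the cyclin D1 gene that links growth signals to the cycle, was 42589, 5992, 6037 and 16822 on the same arrays, and *Ccne1*, the cyclin E1 gene, was 8647, 1532, 2077 and 3507. *Ccne1* fell by 2.31 with MG132, next to -2.21 on its second probe. In these 3 genes ONX0914 lay between DMSO and the other inhibitors. *Cx3cr1*, the fractalkine receptor of resident macrophages, was 1642 with DMSO and 245 with MG132, and its 2 probes differed by -2.56 and -2.60. The SH2 domain adaptor *Sh2d3c* fell by 2.59, and *Lfng*, which modifies Notch receptors with sugar, fell by 2.51. Other glycosyltransferase genes among the 15 were *B3gnt7*, at -2.35, and *B3galt5*, at -2.34. *Trappc1*, a subunit of a vesicle tethering complex, was 9843 with DMSO, 1748 with MG132 and 5537 with ONX0914, and both of its probes fell. *Kbtbd11* fell by 2.46, but its other 2 probes differed by -0.97 and 0.11. The remaining genes were *H3c8*, *H2ac21*, *Depdc1b*, *9930012K11Rik* and *C130050O18Rik*, between -2.49 and -2.27. Under normexp fitted without outlier spots *B3gnt7* and *H2ac21* differed by -0.93 each.

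The largest bounds downward outside the groups set aside by symbol were those of *Rprml*, *Olfr606*, *Lca5l*, *Frk* and *Crb2*. Their signals with DMSO were 139 to 182, and none was well above background on any inhibitor array. Only *Lca5l* had a second probe to compare, which differed by -0.59. Under normexp fitted without outlier spots *Lca5l* and *Crb2* differed by -0.93 and -0.84, short of 2-fold. Of the 86 genes lowered as bounds, 58 passed the background call with DMSO and with none of the inhibitors.

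Among genes of protein turnover, several of the ubiquitin list were raised at least 2-fold at 4 hours. No proteasome subunit reached 2-fold, although most lay above 0. Over all genes compared, 7.25% were raised and 3.66% lowered. Of 41 subunits and assembly factors of the 26S proteasome, 0 passed 2-fold in either direction. Of these, 33 lay above 0 and 8 below, and the median was 0.22 against -0.02 over all genes. The signal of *Psmb5*, the subunit with the chymotrypsin-like site, was 129247 with DMSO and 119609 with MG132, a difference of 0.07. *Psmb1* and *Psmb2* differed by 0.17 and 0.28, the ATPase subunit gene *Psmc6* by 0.82 and the ubiquitin receptor gene *Adrm1* by 0.85. Under normexp fitted with outlier spots *Adrm1* differed by 1.07, past 2-fold. The list of ubiquitin, p97 and aggregate handling had 5 of 33 raised, or 15.2%, and 0 lowered, with a median of 0.28. *Zfand2a*, an arsenite-inducible partner of the proteasome, was 6914 with DMSO, 58156 under MG132, 85261 under epoxomicin and 24839.7 under ONX0914. It stood above DMSO on all inhibitor arrays, by 3.26 with MG132, whereas the E3 ligase gene *Stub1* differed by -0.50.

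Autophagy had 4 of 28 genes raised, or 14.3%, against 7.25% of all genes, and 0 lowered, against 3.66%, with a median of 0.26 that turned to -0.04 under normexp fitted with outlier spots. *Sqstm1*, the p62 receptor for ubiquitylated cargo, was 4801 with DMSO and 25594 with MG132, a rise of 2.60, and *Gabarapl1*, an ATG8 protein gene, rose by 1.38. Co-chaperones and chaperonin had 3 of 28 raised and 1 lowered, with a median of 0.31, beside 7.25% and 3.66% of all genes. *Dnaja1*, an HSP40 partner of HSP70, rose by 1.41 and *Chordc1*, an HSP90 partner, by 1.19. The lowered member, *Ahsa2*, rested on a bound of at least 4.24-fold from a DMSO signal of 85.9 and differed by -0.55 under normexp fitted without outlier spots. Genes of folding and degradation in the endoplasmic reticulum had 2 of 28 raised, *Herpud1*, from 6425 to 26077, and *Dnajb9*, at 1.30, while the calreticulin gene *Calr* differed by -0.61. Among cathepsins, calpains and their inhibitors, which belong to protease families that MG132 also acts on, 0 of 26 passed in either direction, with a range from -0.53 for *Cst7* to 0.65 for *Capn10*. Lysosomal genes had 0 of 26 raised and 1 lowered, the sialidase gene *Neu1*, which fell by 1.06, but by 0.89 under normexp fitted with outlier spots.

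Genes of amino acid uptake and of tRNA charging were raised in a larger share than genes as a whole, of which 7.25% were raised and 3.66% lowered. Of 19 amino acid transporters, 6 were raised, or 31.6%, and 0 lowered, with a median of 0.33. *Slc6a9*, the glycine transporter GlyT1, was 1052 with DMSO, 10546 under MG132, 11197 under epoxomicin and 5507 under ONX0914, and its 2 probes rose by 3.51 and 3.41. *Slc7a11*, the cystine importer, rose by 5.63, while *Slc43a2* and *Slc7a7* differed by -0.71 and -0.66. Of 22 cytosolic aminoacyl-tRNA synthetase genes, 7 were raised, or 31.8%, 0 were lowered and 21 lay above 0, with a median of 0.69 against -0.02 over all genes. *Cars*, which charges cysteine tRNA, was 10828 with DMSO and 34363 with MG132, a rise of 1.85, and *Nars*, for asparagine, rose by 1.45. *Qars*, for glutamine, differed by 0.01 and *Aimp2*, a scaffold of the synthetase complex, by -0.22. The median of this list stayed between 0.50 and 0.79 under the alternatives. Among translation initiation factors, 2 of 53 were raised and 1 lowered. The raised *Eif4ebp1* and the lowered *Eif4ebp2*, both inhibitors of cap-dependent initiation, differed by 1.42 and -1.28.

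**Figure D3:**
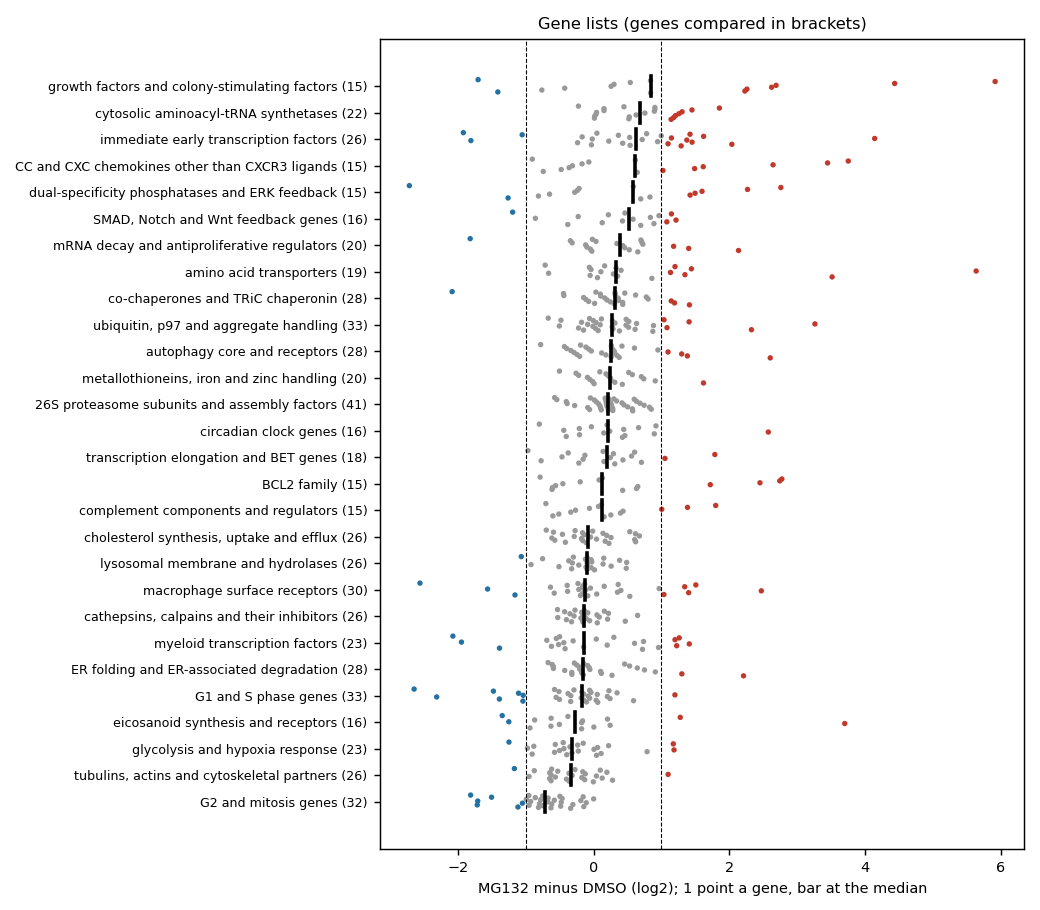
Log2 differences between MG132 and DMSO for the members of 28 gene lists, 1 point a gene, ordered by the list's median (black bar), with the number of genes compared in brackets. Red points are raised and blue points lowered at least 2-fold (dashed lines); the median is 0.69 for aminoacyl-tRNA synthetases, 0.84 for growth factors and -0.71 for G2 and mitosis genes.

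Immediate early transcription factors moved in both directions. Of 26 compared, 9 were raised and 3 lowered, or 34.6% and 11.5% against 7.25% and 3.66% of all genes, with a median of 0.63. *Klf6*, a zinc finger factor induced by injury, was 23281 with DMSO, 83876 under MG132, 114927 under epoxomicin and 47758 under ONX0914, and *Klf10*, a gene of the same family that TGF-beta induces, was 3691, 859, 1139 and 1808. *Klf6* thus rose by 2.04 where *Klf10* fell by 1.92. *Myc*, a driver of growth, fell by 1.81 with MG132, from 785 to 197, and differed by -0.87 with epoxomicin and -1.62 with ONX0914. Dual-specificity phosphatases and other brakes on ERK had 5 of 15 raised and 2 lowered. *Dusp1*, a nuclear phosphatase for p38 and JNK, rose by 2.76 and *Dusp8*, of like preference, by 2.27, whereas *Dusp7* and *Dusp6*, which act on ERK, fell by 2.71 and 1.26. The median of this list, 0.59, turned to -0.29 under normexp fitted with outlier spots. Regulators of mRNA decay had 3 of 20 raised and 1 lowered. *Zfp36*, which encodes the decay factor tristetraprolin, rose by 2.13 and its relative *Zfp36l2* fell by 1.82. Feedback genes of SMAD, Notch and Wnt signaling had 3 of 16 raised and 1 lowered, among them *Id1* at 1.15 and the Notch target *Hes1* at -1.19, with *Hes1* at -0.23 for epoxomicin and -1.55 for ONX0914. The difference of *Hes1* with MG132 was -0.23 under normexp fitted without outlier spots. Their *Znrf3*, a Wnt inhibitor gene, rose by 1.21, but differed by -0.38 under normexp fitted with outlier spots. The clock list had 1 of 16 raised, the repressor *Nfil3* at 2.57, with the clock factor *Arntl* at 0.92 and the output gene *Dbp* at -0.80. Elongation and BET genes had 2 of 18 raised, *Aff1*, a scaffold of the super elongation complex, and *Ell2*, an elongation factor, at 1.79 and 1.05.

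Among genes of secreted signals, growth factors and colony-stimulating factors had 6 of 15 raised and 2 lowered, with a median of 0.84. These shares were 40% and 13.3%, against 7.25% and 3.66% of all genes. Besides *Areg*, the stress cytokine *Gdf15* was 244 with DMSO and 12898 with MG132, a rise of 5.91. *Csf2*, the GM-CSF gene, fell by 1.70 to a low 28.9 with a spot error of 0.08, although by 0.60 under normexp fitted without outlier spots, and *Vegfb* fell by 1.41. Chemokines other than the CXCR3 ligands had 6 of 15 raised, or 40%, and 0 lowered, with a median of 0.62. The monocyte chemokine *Ccl8* was 257 with DMSO, 2459.5 under MG132, 3428 under epoxomicin and 1434 under ONX0914, a rise of 3.45. *Ccl24* and *Ccl9* differed by -0.90 and -0.74. Eicosanoid genes had 2 of 16 raised and 2 lowered, or 12.5% each. *Ptgs2* and the leukotriene B4 receptor gene *Ltb4r1* rose, the latter by 1.28, while the prostaglandin D synthase gene *Hpgds* and the leukotriene receptor gene *Cysltr1* fell by 1.35 and 1.25. Complement had 3 of 15 raised and 0 lowered. *C4b* rose by 1.80 and *C1s1* by 1.38, but they differed by 0.50 and -0.090 under normexp fitted with outlier spots, where *Ltb4r1* differed by 0.66, while *C1qa* and *C1qc* differed by -0.70 and -0.60.

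Of 30 macrophage surface receptors, 5 were raised and 3 lowered, or 16.7% and 10.0%, against 7.25% and 3.66% of all genes. The costimulatory receptor *Cd40* was 1911 with DMSO and 9304 with MG132, a rise of 2.47. *Axl*, a receptor for apoptotic cells, rose by 1.51 from 89.0, but differed by -0.037 under normexp fitted with outlier spots. Besides *Cx3cr1*, the sensor of bacterial RNA *Tlr13* fell by 1.56. Of 23 myeloid transcription factors, 4 were raised, or 17.4%, and 3 lowered. The homeobox factor *Hhex* was 4501 with DMSO and 941 with MG132, and the macrophage factor *Maf* was 2724 and 621, so that they fell by 2.07 and 1.94. *Cebpa* rose by 1.41 between signals of 17.5 and 40.8, but differed by -0.93 under normexp fitted with outlier spots, and *Spi1*, which encodes PU.1, differed by -0.52.

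Cell cycle genes were lowered in a larger share than genes as a whole, of which 3.66% were lowered and 7.25% raised. Of 32 G2 and mitosis genes, 6 were lowered, or 18.8%, 0 were raised and 1 lay above 0, with a median of -0.71 against -0.02 over all genes. *Plk1*, a mitotic kinase, was 23435 with DMSO, 5869 under MG132, 7359 under epoxomicin and 10369.7 under ONX0914. *Aurkb*, the kinase of the chromosomal passenger complex, fell by 1.71 from 229, or by 0.98 under normexp fitted without outlier spots, while *Bub1* and *Hmmr* differed by -0.11 and 0.00. The median stayed between -0.90 and -0.65 under the alternatives. Of 33 G1 and S phase genes, 7 were lowered, or 21.2%, and 1 raised, with a median of -0.17. *Ccnd1* and *Ccne1* were among the lowered, and *Mcm10*, a replication initiation gene, differed by 0.59. Clustered histone genes, matched through their older symbols, had 8 of 46 lowered, or 17.4%, and 1 raised. *H3c8* was 1213 with DMSO and 189 with MG132, and the raised *H2aw* was 352 and 677, a difference of 1.13 that was 0.51 under normexp fitted with outlier spots. In the BCL2 family, 4 of 15 were raised, or 26.7%, and 0 lowered. The death-promoting BH3-only genes *Bcl2l11*, which encodes Bim, and *Pmaip1*, which encodes Noxa, were 217 and 2989 with DMSO and 1304 and 17552 with MG132, rises of 2.77 and 2.74. With ONX0914 they differed by 0.43 and 1.29 from the same DMSO array, and the related *Bmf* and *Bad* differed by -0.79 and -0.61 with MG132.

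Glycolysis and hypoxia genes were called about as often as all genes, of which 7.25% were raised and 3.66% lowered. They had 2 of 23 raised, or 8.70%, *Ndrg1* at 1.18 and *Pfkp* at 1.17, and 1 lowered, or 4.35%, the pyruvate dehydrogenase kinase gene *Pdk1* at -1.25, or -0.75 under normexp fitted without outlier spots, while *Car9* differed by -0.97. Genes of cholesterol synthesis, uptake and efflux had 0 of 26 called, with the sterol reductase gene *Dhcr7* lowest at -0.70. Metal genes had 1 of 20 raised, the iron exporter *Slc40a1*, from 2406 to 6491, with the zinc exporter *Slc30a1* at 0.91. Tubulins, actins and partners had 1 of 26 raised and 1 lowered, with a median of -0.34. *Tubb4b*, a beta-tubulin gene, fell by 1.17, and *Tuba8*, an alpha-tubulin gene, rose at least 2.14-fold from background. Under normexp they differed by -0.96 with outlier spots in the fit and by 0.45 without them, respectively.

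Counts in whole families are set against 7.25% raised and 3.66% lowered over all genes. Cytosolic ribosomal protein genes had 0 of 80 called, and subunits of NADH dehydrogenase, cytochrome c oxidase and ATP synthase had 1 of 75 raised, as a bound, 0 lowered and a median of -0.29. Mitochondrial ribosomal proteins had 6 of 77 lowered and 0 raised, led by *Mrpl41*, which fell by 1.43 although its second probe differed by -0.25. Small nucleolar RNAs and their host genes had 4 of 11 raised and 2 lowered. *Snhg1* was 1585 with DMSO, 11834 under MG132, 11648 under epoxomicin and 5009.9 under ONX0914, a rise of 3.09, and *Snord123* fell by 1.06, or by 0.53 under normexp fitted without outlier spots. TRIM genes, many of them ubiquitin ligases of antiviral defense, had 13 of 44 raised and 1 lowered, which was 29.5% raised against 7.25% of all genes, and *Trim30d* rose by 2.16 while *Trim8* fell by 1.11, or by 0.96 under normexp fitted with outlier spots. Solute carriers had 28 of 236 raised and 1 lowered, and numbered *Zfp* zinc finger genes 20 of 289 and 6. F-box genes had 6 of 59 raised and 4 lowered, Rab genes 7 of 61 and 5, Kelch-like genes 1 of 25 and 4, kinesins 0 of 30 and 2, and E2 enzymes 0 of 31 and 2. DnaJ genes had 2 of 35 raised and 1 lowered, ubiquitin-specific proteases 4 of 45 and 1, Mediator subunits 1 of 28 and 0, and Gpr receptors 3 of 38 and 3. Olfactory receptors had 184 of 1069 genes compared, with 18 raised and 9 lowered. The shares lay near those of all genes for DnaJ genes, at 5.71% and 2.86%, ubiquitin-specific proteases, at 8.89% and 2.22%, *Zfp* genes, at 6.92% and 2.08%, and olfactory receptors, at 9.78% and 4.89%. *Fbxl14*, an F-box gene read in 10 spots, fell by 1.63 with a spot error of 0.04, and *Rab19* fell by 2.03.

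**Figure D4:**
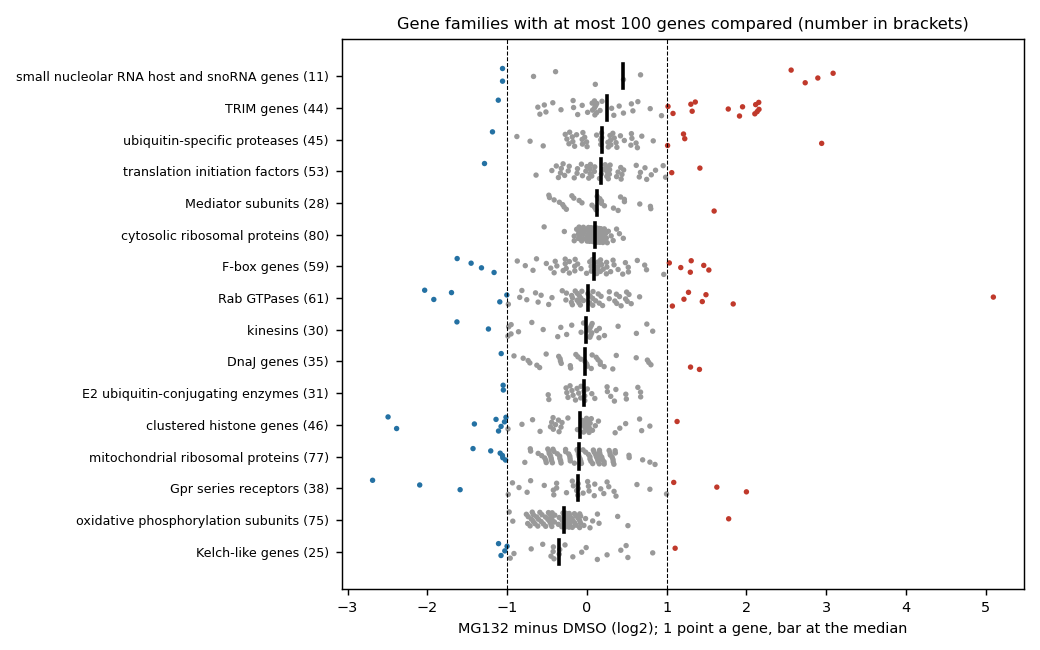
Log2 differences between MG132 and DMSO for gene families with at most 100 genes compared, 1 point a gene, ordered by the median (black bar), with the number compared in brackets. Points past the dashed 2-fold lines are red when raised and blue when lowered; 13 of 44 TRIM genes lie to the right and 0 of 80 cytosolic ribosomal protein genes lie outside the lines.

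Neighbours of called genes were called in the same direction more often than the genes compared as a whole. With the compared genes in RefSeq order, 17.6% of the neighbours of raised genes were raised, against 7.25% of all genes, and 6.96% of the neighbours of lowered genes were lowered, against 3.66%. With the genes set aside above by symbol left out, the shares were 13.9% against 6.61% for raised genes and 6.49% against 3.66% for lowered genes. Related genes that the symbol patterns missed stayed in. Runs of at least 3 raised neighbours numbered 29, of which 15 held no gene matched by the patterns, and runs of lowered neighbours numbered 6. The following runs were named after their values were seen, and the members of tandem families can share reads of a probe. *Phf11a*, *Phf11b*, *Phf11d* and *Phf11c* rose by 1.46 to 2.94, and *Trim34a*, *Trim12c*, *Trim30b*, *Trim30a* and *Trim30d* by 1.91 to 2.16. The other 2 probes of *Trim12c* differed by 0.72 and 1.15, and under normexp fitted with outlier spots *Trim12c*, *Trim30b* and *Phf11c* differed by 0.93, 0.07 and 0.85. The chemokine genes *Ccl7*, *Ccl12* and *Ccl8* stood together, with *Ccl7* at 24159.8 with DMSO and 132569 with MG132. A run without related members held *Tm7sf3*, the Mediator gene *Med21*, the kinase gene *Stk38l* and the clock gene *Arntl2*. *Stk38l* was 3765 with DMSO and 16071 with MG132, and its other 2 probes rose by 2.53 and 2.60, while *Arntl2* was a bound that fell short of 2-fold, at 0.88, under normexp fitted without outlier spots.

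Of the 6 lowered runs, 2 were again named after their values were seen. *Tlr1* and *Tlr6*, partners of TLR2 in sensing bacterial lipopeptides, were 1769.9 and 884 with DMSO and 562 and 256 with MG132, decreases of 1.47 and 1.60. *Pirb* and *Pira2*, paired inhibitory and activating receptors of myeloid cells, fell 3.99-fold and 3.89-fold, but a second *Pira2* probe differed by -0.23, and the first by -0.81 under normexp fitted without outlier spots. With ONX0914, *Pirb* and *Pira2* differed by -0.58 and -0.56.

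The span of called genes in the genome differed by direction. The median span from start to end in RefSeq was 13331 bases for lowered genes, 18845.5 for raised genes and 20336.5 over all genes compared. Of the raised genes, the 893 outside the groups set aside by symbol had a median of 20061 bases, and the 105 in those groups had 13710. A span under 5000 bases was found for 27.0% of lowered, 17.1% of raised and 2204 of the 13772 genes compared. Long noncoding RNAs numbered 12 of 504 lowered, 20 of 998 raised and 194 of all 13772 genes compared. These are descriptions of the called genes, and genes are not replicates.

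Among genes detected on all 4 arrays, few set MG132 apart from the others. Of 11263 genes well above background on all 4 arrays, with a signal of at least 100 on 1 of them, 4 were at least 2-fold higher with MG132 than on each of the other 3 arrays, or 0.0355%, and 0 were at least 2-fold lower, or 0%. The same counts were 10 and 9 for epoxomicin, 6 and 2 for ONX0914, and 67 and 246 for DMSO. At 1.5-fold MG132 had 15 above and 2 below. Genes well above background with MG132 alone lie outside these counts, and their number was not taken. *Olfr1335*, for example, was 2.98 with DMSO, 97.4 under MG132, 4.11 under epoxomicin and 3.91 under ONX0914. The transporter gene *Slc46a2* was 45.8 with DMSO, 302 under MG132, 64.0 under epoxomicin and 27.5 under ONX0914, a gap of 2.45 to the nearest array. The homeobox gene *Nkx2-3* was 26.3, 101, 23.6 and 26.7, and the ferritin-like gene *Fthl17f* was 21.9, 115, 37.1 and 22.2, with gaps of 2.06 and 1.85. *Tmem74* was 99.0, 279, 135 and 129.9, a gap of 1.25. Each of the 4 genes was read by 1 named probe, and each had at most 135.4 on the arrays other than MG132. None of them passed when a signal of at least 100 was asked on every array, and *Nkx2-3* and *Fthl17f* differed from DMSO by -0.43 each under normexp fitted with outlier spots, where *Slc46a2* and *Tmem74* differed by 0.35 and 0.25.

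The other 6 of the 10 largest gaps above the other arrays were under 2-fold. *Fam13c* was 342 with DMSO and 588 with MG132, with the other inhibitors at 335 and 328, and its second probe differed from DMSO by 1.72. With the mean over both probes the gap of *Fam13c* turned from 0.97 to -0.18. The RNA-binding protein gene *Taf15* was 1743, 2838, 1662 and 1630.1, a gap of 0.89, and the splicing factor gene *Yju2* and the E3 ligase gene *Rnf25* had gaps of 0.73 each. For these 4 genes the 3 arrays other than MG132 lay close together. *Tatdn2*, a nuclease-like gene, was 796 with DMSO and 1119.5 with MG132 but 226 and 237 with epoxomicin and ONX0914, so that MG132 differed from DMSO by 0.68 where both of the other inhibitors were lower than DMSO. *Cdc42bpg*, a kinase gene, was 103 with DMSO and 142 with MG132 and had a gap of 0.66, which turned to -0.72 under normexp fitted with outlier spots.

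Below the other arrays, the largest gap was -0.67 for *B3glct*, a glucosyltransferase gene, at 215 with DMSO, 87.6 under MG132, 197 under epoxomicin and 154 under ONX0914. *Hal*, which degrades histidine, was 136, 64.5, 117 and 122, a gap of -0.64. The gaps of *Slc27a5*, *B3gnt8*, *Ccdc69*, *6720489N17Rik*, *H2ac21*, *Rbm4b*, *Narf* and *Klk1b27* ran from -0.53 to -0.42. Under normexp fitted without outlier spots the gap turned to 0.03 for *Slc27a5*, 0.10 for *6720489N17Rik* and 0.09 for *Klk1b27*, and the last pair had the same values with outlier spots in the fit. Without them *B3glct*, *B3gnt8*, *Ccdc69*, *6720489N17Rik*, *H2ac21*, *H3c15*, *Narf* and *Klk1b27* were less than 2-fold below DMSO. Among the 779 raised genes well above background on all arrays, 6 exceeded both epoxomicin and ONX0914 by at least 2-fold. The fifth largest of these gaps was that of *Tal2*, a helix-loop-helix factor gene, at 37.8 with DMSO and 82.6 with MG132, whose difference from DMSO was -0.78 under normexp fitted with outlier spots. Among the 413 lowered genes, 0 lay at least 2-fold below both, and the histone gene *H3c15* had a gap of -0.56. The median gap to the nearer array was -0.12 for raised genes, for which the nearer array is the higher one, and -0.00 for lowered genes.

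**Figure D5:**
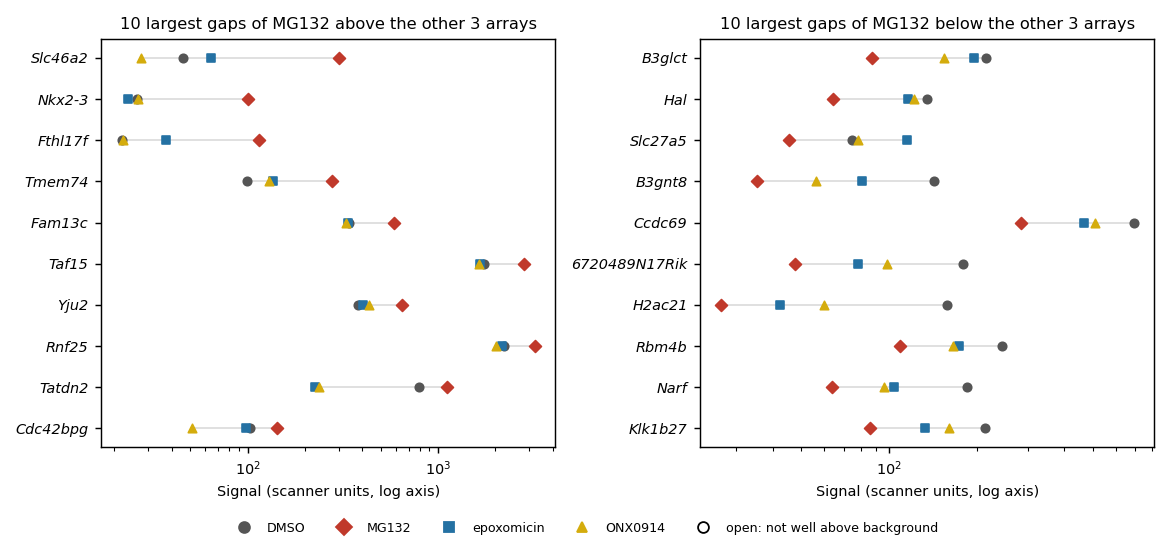
Signals on the 4 arrays (log axis, scanner units) for the 10 genes with the largest gap of MG132 above, and the 10 with the largest gap below, the nearest of the other 3 arrays. Only genes well above background on all 4 arrays entered. MG132 stands alone at the right of the left panel and at the left of the right panel by construction; the gap is over 2-fold only for the first 4 genes on the left.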

How the data were processed

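Total RNA of J774.1 cells was read on 4 single-color Agilent arrays, 1 per condition. Per the file headers, the authors deposited scanner intensity values made with Agilent Feature Extraction 10.7.1.1 on mouse design 026655, background-subtracted within each array and not scaled between arrays, whereas the paper's methods name a human array. A deposited value table, normalized by the authors with GeneSpring, holds log2 values relative to each probe, with scaling and centring unstated, and served as an alternative only. For each array, log2 of the processed signal minus its own 75th percentile over non-control spots without outlier flags was taken with Python 3.11.15, numpy 2.4.6 and pandas 2.3.3. Spots of a probe were averaged, and the probe with the highest mean over the 4 arrays stood for a gene. Each probe's accession in the files was matched to RefSeq transcripts, and a probe was named where this gave exactly 1 gene. This named 26581 of 39429 probes, or 67.4%, covering 20144 genes. A gene entered if it passed the scanner's background call with DMSO, with MG132 or with both. It was left out if it passed on 1 array only, with a scaled value below that set for the other. Calls were made at 2-fold. Normexp and quantile alternatives used limma 3.58.1 in R 4.3.3 with an offset of 50. Precision is limited by the number of arrays, and no test was run. The script was tested on simulated data.

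The 28 gene lists, the 19 families, the markers and the rule for named genes were chosen with earlier results of these data known. The rule took the 15 largest measured changes and 5 largest bounds in each direction outside the earlier gene groups, the 10 largest gaps of MG132 above and below the other 3 arrays, the 5 largest gaps in each direction to the nearer of the other inhibitors, and examples from each list. Genes named after their values were seen are marked so. *Polr2a*, *Cd68*, *Clec7a*, *Bcl2a1a*, *Bcl2a1b* and *Ly6g* had no named probe and were not analysed here. Alternatives covered background correction, scaling, probe choice, outlier spots, bounds, filters and thresholds. Results for some items are not reported here.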

Additional observations from a re-analysis of the deposited data

Results flagged for a closer look

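Probes whose accession did not match exactly 1 RefSeq gene had no gene name and lay outside the comparisons above. Of 12848 such probes, 6915 were compared between DMSO and MG132, and 491 of them, or 7.10%, were at least 2-fold higher with MG132, while 325, or 4.70%, were at least 2-fold lower, with a median of 0.02. *Bfsp1*, which encodes the lens filament protein filensin, was the only gene that passed 2-fold in opposite directions with MG132 and with ONX0914, and 0 genes did so with MG132 and epoxomicin. Its signal was 45.7 with DMSO, 129.9 under MG132, 50.2 under epoxomicin and 12.5, not well above background, under ONX0914. The difference from the shared DMSO array was 1.70 with MG132, and with ONX0914 it was a bound of -1.21. With 1 array each the opposite directions were not tested.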

How the results depend on the processing

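No paired analysis was possible because each condition had 1 array, and for the same reason no array could be left out. Normexp with outlier spots left out of its fit gave 602 genes higher, 284 lower and 1 above each of the other 3 arrays, and with outlier spots in the fit it gave 470, 2508 and 0. Under the latter setting the difference turned to -0.037 for *Axl*, -0.26 for *Bfsp1*, -0.090 for *C1s1*, -0.93 for *Cebpa*, -0.78 for *Tal2* and -0.38 for *Znrf3*, and both the difference and the gap turned to -0.43 for *Fthl17f* and *Nkx2-3*. No other setting tried turned the sign of a called difference among the 180 genes followed. Of the 137 called genes among them, 111 kept the call under normexp without outlier spots, and 109 of the 134 with a value did so with them in the fit. Smaller gaps turned too, to -0.72 for *Cdc42bpg* under the latter setting, to -0.18 for *Fam13c* with the mean over its probes, and to 0.03, 0.10 and 0.09 for *Slc27a5*, *6720489N17Rik* and *Klk1b27* under normexp without outlier spots. Without scaling 904 genes were lower, and with spike-in scaling 890 were lower and 1 lay below each of the other 3 arrays. A 4-fold threshold left 271 higher and 48 lower. A signal of at least 100 on every array left 0 genes above the other 3 arrays, and a 1.5-fold threshold gave 15 above and 2 below. The cause of these shifts was not tested, apart from the thresholds, which change the counts by construction. Faint genes limit the comparison, since 189 raised and 86 lowered genes are bounds set by the background call.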
